A study of Homo sapiens with 15 samples.

Results

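CXCL9, CXCL10 and CXCL11 are the 3 chemokines that bind the receptor CXCR3, and they were taken from the count table by their gene symbols, as 3 of 60286 genes. RNA was sequenced from THP-1, a monocytic line of human cells, incubated with PBS (NC) or with bacterial extracellular vesicles (BEVs), which are membrane particles shed by bacteria. *E. coli* BEVs were given at 1 μg/mL (EUC and EPL) and *S. aureus* BEVs at 10 μg/mL (SUC and SPL). The BEVs had been isolated by ultracentrifugation (UC, in EUC and SUC) or by precipitation with epsilon-poly-L-lysine (PL, in EPL and SPL). Each group held 3 libraries, the methods give 6 h of incubation and the labels give Day 0. Species and dose changed together, so their effects cannot be told apart. THP-1 is a leukaemia line and stands in for monocytes only as far as such a line does. Nothing in the labels says that the libraries of a group came from separate cultures started on different days, so p-values measure the spread between these libraries.

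CXCR3 is carried mainly by activated T cells and NK cells, and its ligands draw those cells towards inflamed tissue. Interferons are the classical inducers of the ligands. Interferon gamma acts through gamma-activated sites (GAS), and type I interferon acts through a complex with STAT2 and IRF9 on interferon-stimulated response elements (ISRE). NF-kappa B, which is released when Toll-like receptors sense bacterial products, also acts at these promoters. Monocytes can make interferon beta after sensing lipopolysaccharide, so both routes can reach the ligand genes in such cells.

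The 3 genes lie side by side on the minus strand of chromosome 4. In GENCODE release 44 (hg38), CXCL9 (ENSG00000138755) spans chr4:76001275-76007509, CXCL10 (ENSG00000169245) spans chr4:76021118-76023497 and CXCL11 (ENSG00000169248) spans chr4:76033682-76041415. The gap from CXCL9 to CXCL10 is 13608 bases and that from CXCL10 to CXCL11 is 10184 bases. CXCL10 and CXCL11 lie within the span of ART3, an ADP-ribosyltransferase family gene on the plus strand, with 0 bases of exon in common. The span of CXCL9 overlaps that of SDAD1-AS1 and the span of CXCL11 overlaps that of the pseudogene RPL36P8, again with 0 bases of exon in common. ART3 had 33 reads over all 15 libraries, so its own exons gave few reads beside those of CXCL10.

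The 250 bases before each annotated start (RefSeq, GRCh38.p14, minus strand) are printed to show which elements the 3 neighbours share. Capitals mark matches to an ISRE (GAAANNGAAA), a GAS (TTCNNNGAA) or an NF-kappa B motif (GGGNNNNNCC), searched on both strands. The windows are chr4:76007510-76007759 for CXCL9, chr4:76023498-76023747 for CXCL10 and chr4:76036071-76036320 for CXCL11. The start of CXCL11 used here is that of its shorter pre-mRNA, and the window lies in an intron of a second GENCODE transcript.
CXCL9: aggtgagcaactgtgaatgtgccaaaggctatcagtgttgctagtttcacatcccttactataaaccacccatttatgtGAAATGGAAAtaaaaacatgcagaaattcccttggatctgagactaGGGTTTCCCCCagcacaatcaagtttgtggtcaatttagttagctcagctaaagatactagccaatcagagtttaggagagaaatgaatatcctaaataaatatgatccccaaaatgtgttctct
CXCL10: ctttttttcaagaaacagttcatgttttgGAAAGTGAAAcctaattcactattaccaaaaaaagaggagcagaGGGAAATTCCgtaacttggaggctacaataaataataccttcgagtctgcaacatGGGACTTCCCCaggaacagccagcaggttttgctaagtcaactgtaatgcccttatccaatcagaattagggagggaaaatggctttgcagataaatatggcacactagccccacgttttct
CXCL11: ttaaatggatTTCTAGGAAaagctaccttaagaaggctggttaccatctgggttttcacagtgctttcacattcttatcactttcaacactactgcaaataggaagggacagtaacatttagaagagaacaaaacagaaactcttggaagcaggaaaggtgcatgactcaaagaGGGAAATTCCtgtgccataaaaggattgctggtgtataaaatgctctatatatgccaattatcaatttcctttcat

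CXCL9 held an ISRE match at bases -171 to -162 from the start, and CXCL10 held one at -221 to -212. CXCL11 held no ISRE match in this window and a GAS match at -240 to -232. NF-kappa B matches lay at -125 to -116 in CXCL9, with a match shifted by a base overlapping it on the other strand. In CXCL10 they lay at -177 to -168 and at -122 to -113, the latter again with a shifted match over it. In CXCL11 the match lay at -76 to -67 and had the same letters as the first of CXCL10. Among 35116 promoters of the same table, searched over the same length, 3.02% held the ISRE, 6.57% the GAS and 54.4% the NF-kappa B motif. The NF-kappa B letters are thus common, and the ISRE letters are not. A match is a stretch of letters and does not show that a factor was bound.

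**Figure D1:**
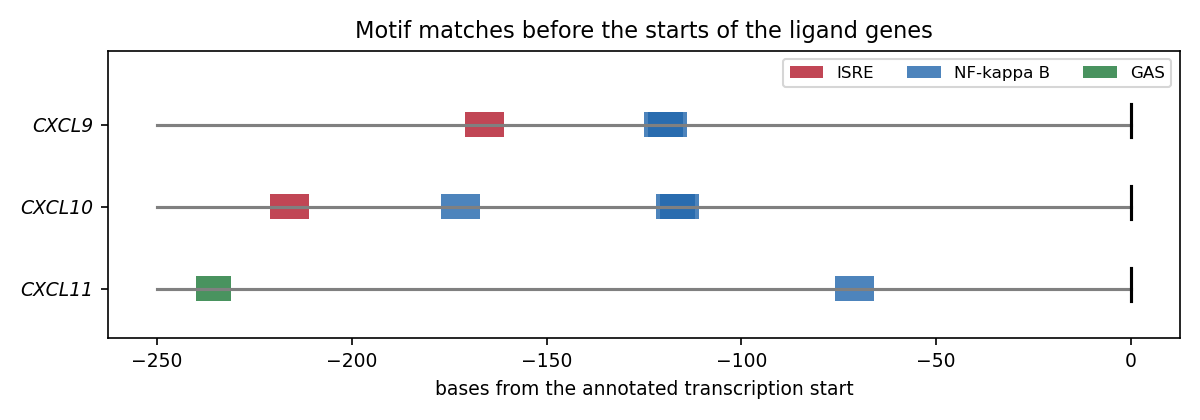
Positions of motif matches in the 250 bases before the annotated start of each ligand gene. The x axis is the distance from the start in bases, the vertical bar is the start and coloured boxes are matches. CXCL9 and CXCL10 each hold an ISRE match, and all 3 windows hold an NF-kappa B match.

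The libraries held 14399421 to 16637345 reads on genes (median 15831655), and 17198 genes were tested. All 10 monocytic markers, such as SPI1 and CD33, had at least 10 reads in every library. Among the T cell markers CD3D and CD3G had no read in any library, and the summed level of the 5 T cell markers was 0.0640 to 0.358 CPM (counts per 1 M counted reads after TMM scaling) in NC and 0.256 to 1.18 CPM in stimulated cells. The NK cell markers summed to 23.7 to 26.6 CPM in NC and 23.6 to 29.9 CPM in stimulated cells, from NKG7 and NCAM1. The B cell markers summed to 3.90 to 5.43 CPM and 1.38 to 4.56 CPM, the epithelial markers to 2.05 to 4.0 CPM and 1.19 to 2.81 CPM, and the endothelial markers, nearly all PECAM1, to 303 to 309 CPM and 209 to 287 CPM. The fibroblast markers, nearly all COL1A1, rose with stimulation from 0.640 to 1.00 CPM to 1.85 to 5.38 CPM, while COL1A2 had 1 read in all. The erythroid markers were at 0. The part of these shifts in the results below was not tested.

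The ligands were nearly silent in PBS cells and were read in every stimulated library. For CXCL10 the NC libraries held 1, 2 and 0 reads. The EUC libraries held 1426, 1742 and 2252 reads, the EPL libraries 1333, 1493 and 1710, the SUC libraries 1148, 1183 and 1341, and the SPL libraries 1220, 1284 and 1211. Every stimulated library thus stood far above every NC library, and the third EUC library was the highest of all. In CPM the mean was 0.0605 ± 0.0589 in NC, 117 ± 28.1 in EUC and 96.5 ± 9.72 in EPL, and 80.3 ± 7.48 in SUC and 81.4 ± 3.01 in SPL (SD, n = 3 each). As NC held 3 reads in all, the increase is given as a ratio of normalised counts with its exact 95% interval, which covers counting error only. For the *E. coli* BEVs the ratio was 1932 (661 to 9372) in EUC and 1591 (544 to 7718) in EPL. For the *S. aureus* BEVs it was 1321 (452 to 6406) in SUC and 1339 (458 to 6496) in SPL. The intervals overlap between all 4 groups, but they share the same 3 NC reads, so this overlap does not compare the groups with each other. The second NC library held 2 of the 3 NC reads, and without it the ratios were 3802 (EUC), 3130 (EPL), 2598 (SUC) and 2635 (SPL). Without the third NC library, which held none, they were 1276, 1051, 872 and 884.

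CXCL11, the ligand that binds CXCR3 with the highest affinity, was read less often. The NC libraries held 3, 1 and 1 reads. The EUC libraries held 208, 259 and 305 reads, the EPL libraries 192, 245 and 274, the SUC libraries 168, 198 and 202, and the SPL libraries 183, 158 and 191. The groups given BEVs did not overlap with NC, and again the third EUC library was the highest. The means were 0.103 ± 0.0766 CPM in NC, 16.7 ± 3.26 in EUC and 15.1 ± 2.30 in EPL, and 12.4 ± 0.929 in SUC and 11.7 ± 1.5 in SPL (SD, n = 3 each). The log2 fold change against NC was 7.26 (SE 0.313, adjusted p = 5.11e-12) in EUC and 7.11 (SE 0.316, adjusted p = 8.35e-12) in EPL by edgeR's quasi-likelihood test. In SUC it was 6.83 (SE 0.323, adjusted p = 2.84e-11) and in SPL 6.74 (SE 0.325, adjusted p = 3.08e-11) by the same test. The first NC library held 3 of the 5 NC reads, and without it the values were 7.96, 7.81, 7.53 and 7.44 in the same order of groups.

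CXCL9, the ligand most closely tied to interferon gamma, was the least abundant. No NC library held a read of it, which allows up to 0.192, 0.176 and 0.179 CPM in the 3 libraries at a limit of 3 reads each. The EUC libraries held 14, 27 and 22 reads, the EPL libraries 14, 18 and 8, the SUC libraries 21, 8 and 11, and the SPL libraries 26, 15 and 18. All stimulated libraries were above NC, and the 4 stimulated groups overlapped each other. The means were 1.36 ± 0.416 CPM (EUC), 0.855 ± 0.328 (EPL), 0.887 ± 0.488 (SUC) and 1.29 ± 0.350 (SPL), with SD and n = 3 each. Against 3 reads over the NC group, CXCL9 was at least 22.5-fold higher in EUC and at least 14-fold higher in EPL. It was at least 14.4-fold higher in SUC and at least 21.3-fold higher in SPL. The adjusted p by edgeR was 1.73e-05 (EUC), 0.000103 (EPL), 0.000129 (SUC) and 2.82e-05 (SPL).

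All 3 ligands were called higher in each stimulated group, where called means adjusted p ≤ 0.01 together with |log2 fold change| ≥ 1. Of all tested genes, 9.43% and 9.38% were called higher in EUC and EPL, and 6.82% and 7.76% in SUC and SPL. The ligands had passed the filter on low counts only through the stimulated groups and so had to differ from NC. Neither the count of calls nor the p-values of the ligands against NC are thus support by themselves. The 4 comparisons share the NC libraries. In these bulk libraries, more cells making a ligand and more RNA of it per cell cannot be told apart.

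**Figure D2:**
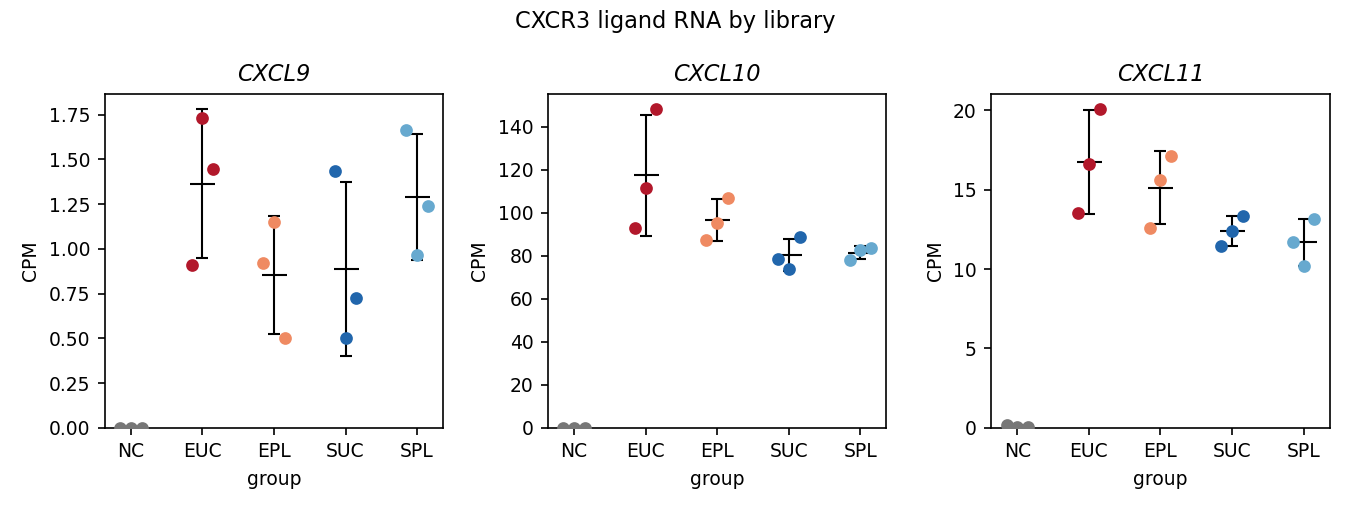
Level of each ligand in every library, in CPM on a linear axis from 0, by group. Points are libraries, and bars are the mean ± SD of 3 libraries. NC lies at or near 0 in each panel, and the third EUC library is the highest for CXCL10 (148 CPM) and CXCL11 (20.1 CPM).

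The levels were also compared per length, since the merged exons of CXCL10, CXCL11 and CXCL9 hold 1175, 1781 and 2761 bases. In EPL the level was 82.1 CPM per kb for CXCL10, 8.48 for CXCL11 and 0.310 for CXCL9. In SPL it was 69.3 CPM per kb for CXCL10, 6.56 for CXCL11 and 0.467 for CXCL9. Of the summed level per length of the 3 ligands, CXCL10 made up a median of 90.5% (89.8 to 92.1% over the 12 stimulated libraries). CXCL11 made up 8.91% (7.47 to 9.92%) and CXCL9 0.432% (0.180 to 0.819%). The order CXCL10, CXCL11, CXCL9 held in all 12 stimulated libraries, since these ranges do not overlap. With the longest transcript in place of merged exons the medians were 88.9%, 10.5% and 0.425%.

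The spread of each ligand between libraries was set beside its counting error. For CXCL10 the coefficient of variation between libraries was 3.70% to 23.9% within the stimulated groups, while counting error alone gives 2.35% to 2.86%. For CXCL11 it was 7.49% to 19.5%, against 6.23% to 7.51% from counting. For CXCL9 it was 27.1% to 55.0%, against 21.8% to 27.4% from counting. A difference in CXCL9 between stimulated groups would therefore need to be large to be seen at this spread and depth. For CXCL10 in EUC the spread (23.9%) was far above counting error (2.35%).

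The isolation methods were compared within each species to ask whether PL and UC BEVs gave different ligand levels. No ligand was called. EPL cells had 0.821 times the CXCL10 of EUC cells (95% interval 0.670 to 1.01), and without the third EUC library the log2 fold change went from -0.28 to -0.08. For CXCL11 the ratio of EPL to EUC was 0.904 (0.720 to 1.14), and for CXCL9 it was 0.628 (0.331 to 1.19). The adjusted p by edgeR was 0.947 for each of these. For the *S. aureus* BEVs the ratio of SPL to SUC was 1.01 for CXCL10 (0.825 to 1.25, adjusted p = 0.987 by edgeR). It was 0.941 for CXCL11 (0.743 to 1.19, adjusted p = 0.944 by edgeR) and 1.46 for CXCL9 (0.767 to 2.79, adjusted p = 0.889 by edgeR). The intervals of CXCL10 and CXCL11 lie within a 2-fold change in either direction, and those of CXCL9 reach past it.

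Of all genes, 0% were called between EPL and EUC and 0.00581% between SPL and SUC. For EPL against EUC, 604 genes had an unadjusted p under 0.05 by edgeR, and DESeq2 also called 0. The difference between the methods was then compared between the species. On the log2 scale (EPL against EUC) minus (SPL against SUC) was -1.22 for CXCL9 (SE 0.620), -0.30 for CXCL10 (SE 0.198) and -0.06 for CXCL11 (SE 0.224), each with an adjusted p of 1.00 by edgeR. Of all genes 0% were called there, 659 had an unadjusted p under 0.05 by edgeR and DESeq2 called 3.

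The species were compared within each isolation method and over both. CXCL10 was 1.46-fold higher in EUC than in SUC (95% interval 1.19 to 1.80, adjusted p = 0.0294 by edgeR), and the 3 EUC libraries lay above the 3 SUC libraries. CXCL11 was 1.35-fold higher (1.07 to 1.70, adjusted p = 0.166 by edgeR), also without overlap. The fold for CXCL9 was 1.54 (0.813 to 2.93, adjusted p = 0.612 by edgeR), with overlapping libraries. For CXCL11 the lowest EUC library was at 13.5 CPM and the highest SUC library at 13.3 CPM. The share of all genes without overlap was not counted, so the lack of overlap is no support by itself. Without the third EUC library the log2 fold change of CXCL10 went from 0.55 to 0.34 (adjusted p = 0.110 by edgeR). Between EPL and SPL the ratio was 1.19 for CXCL10 (0.965 to 1.46, adjusted p = 0.725 by edgeR), 1.30 for CXCL11 (1.03 to 1.64, adjusted p = 0.496 by edgeR) and 0.664 for CXCL9 (0.348 to 1.27, adjusted p = 0.861 by edgeR). CXCL9 thus had point values on opposite sides of 1 in the 2 methods, and neither passed the test. Of all genes, 0.768% were called between EUC and SUC and 0.122% between EPL and SPL.

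Over both methods, CXCL10 was 1.32-fold higher with *E. coli* than with *S. aureus* BEVs (95% interval 1.14 to 1.52, log2 0.40, SE 0.0990, adjusted p = 0.0199 by edgeR). The ratio for CXCL11 was also 1.32 (1.12 to 1.56, log2 0.40, SE 0.112, adjusted p = 0.0386 by edgeR). For CXCL9 it was 1.01 (0.640 to 1.60, adjusted p = 0.989 by edgeR). None of the 3 was called, beside 0.686% of all genes called in either direction. The adjusted p of CXCL10 alone was 0.00394 with DESeq2 and 6.83e-05 without the filter on low counts, and the fold change stayed under the threshold. Other alternatives weakened it, and without the second SUC library the adjusted p of CXCL10 was 0.0833 by edgeR, the highest of all. For CXCL11 the adjusted p ranged from 0.0130 to 0.122 by edgeR over the alternatives. The *E. coli* BEVs were given at the lower dose.

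**Figure D3:**
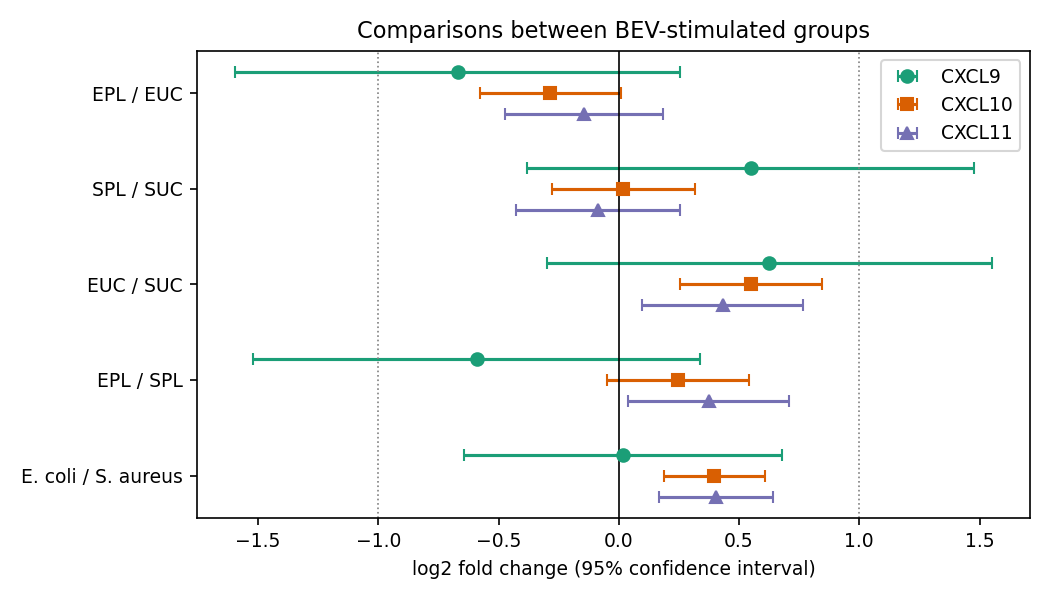
Log2 fold change of each ligand between stimulated groups, with its 95% confidence interval from edgeR. Each row is a comparison, symbols are ligands and dotted lines mark a 2-fold change. For *E. coli* over *S. aureus*, CXCL10 and CXCL11 both stand at 0.40 and CXCL9 at 0.02, and no ligand reaches the call.

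A ratio of 2 ligands within a library does not depend on library size, so it was used to ask whether the mix of ligands differed between the species. The mean log2 ratio of CXCL11 to CXCL10 counts was -2.74 ± 0.103 in the *E. coli* libraries and -2.75 ± 0.149 in the *S. aureus* libraries (SD, n = 6 each; exact permutation test, two-sided, p = 0.933, adjusted p = 0.933). For CXCL9 to CXCL10 the means were -6.63 ± 0.559 and -6.28 ± 0.630 (exact permutation p = 0.340, adjusted p = 0.536). For CXCL9 to CXCL11 they were -3.89 ± 0.592 and -3.53 ± 0.681 (exact permutation p = 0.357, adjusted p = 0.536). The 6 against 6 libraries allow a p as low as 0.00216, and 3 ratios were tested. No difference in the mix was detected. In the UC libraries alone all 3 differences had the opposite sign.

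**Figure D4:**
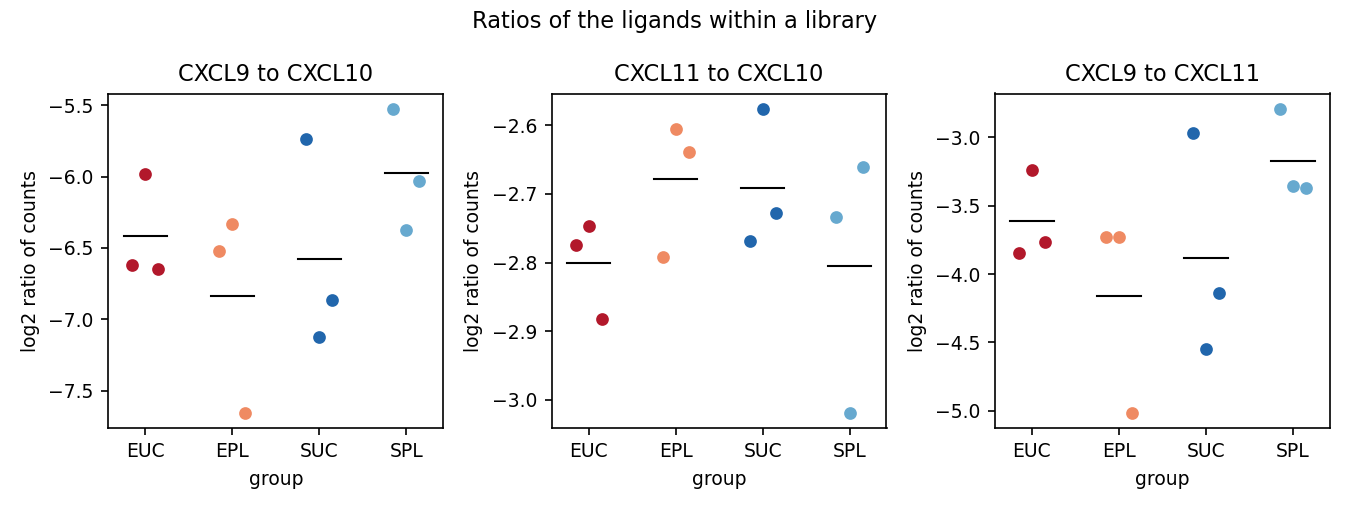
Log2 ratio of the counts of each pair of ligands in every stimulated library, by group. Points are libraries and bars are group means of 3 libraries. The ratio of CXCL11 to CXCL10 spans a narrow range, and the 2 ratios with CXCL9 scatter more widely.

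Over the 12 stimulated libraries CXCL10 and CXCL11 went up and down together, with r = 0.904 for log2 CPM and a Spearman rho of 0.916. As deviations from the group means the r was 0.819, and without the 2 libraries farthest from the median of CXCL10 it was 0.815 over 10 libraries. CXCL9 followed neither closely, with r = 0.215 to CXCL10 and 0.0673 to CXCL11 over the 12 libraries, at 8 to 27 reads per library. These values are descriptions, and the genes share their libraries, depth and scaling. In each stimulated group the third library was the highest for both CXCL10 and CXCL11.

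The genes most like each ligand were sought among 2521 genes with a mean of at least 1 CPM that were called against NC in at least 1 group, by r of log2 CPM over the 12 stimulated libraries. For CXCL10 they were STK17A (r = 0.966), CD83 (0.959), ME1 (0.950), G0S2 (0.949) and WTAP (0.944). CD83 is a surface marker of maturing dendritic cells, ME1 is the cytosolic malic enzyme, G0S2 is an inhibitor of triglyceride lipase and WTAP is a subunit of the RNA adenosine methyltransferase complex. For CXCL11 they were DAPP1 (0.983), an adaptor that binds phosphoinositides, MCOLN2 (0.951), a lysosomal cation channel, USP12 (0.950), a deubiquitinase, PI4K2B (0.934), a lipid kinase, and NCOA7 (0.927). For CXCL9 the values were lower, with CT75 (0.863), IRF2-DT (0.807), ASB2 (0.795), MAP3K8 (0.698) and LINC01160 (0.692). Each set holds the 5 highest of 2521 values of r over 12 libraries, so high values are partly a product of the choice. Whether any set exceeds what such a choice gives was not tested, and CXCL9 had the fewest reads. Over all 15 libraries r was 0.942 to 0.994 for the genes of CXCL10, 0.970 to 0.999 for those of CXCL11 and 0.915 to 0.971 for those of CXCL9. These genes had been called against NC, where the ligands were nearly silent, so a high r with NC included was largely fixed in advance. CXCL9 and CXCL10 themselves had r = 0.215 over the 12 stimulated libraries and 0.943 over all 15. The ligands themselves had been left out of the 2521 genes, so their absence from the genes named is no result. The r of 0.904 between CXCL10 and CXCL11 over the 12 stimulated libraries was below that of each gene named for either.

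The receptor side was read at low levels. CXCR3 itself had 1.34 ± 0.236 CPM in NC, 1.63 ± 0.335 in EUC and 1.47 ± 0.220 in EPL, and 1.23 ± 0.348 in SUC and 0.933 ± 0.402 in SPL (SD, n = 3 each), and it was not called. ACKR3, an atypical receptor that takes up CXCL11 and CXCL12, rose in each group, with log2 fold changes of 1.62, 1.49, 1.12 and 1.34 in EUC, EPL, SUC and SPL. ACKR2, an atypical receptor for CC chemokines, fell in EUC, SUC and SPL by 1.14, 1.28 and 1.04 on the log2 scale, and its value in EPL was -0.80 (adjusted p = 0.0258 by edgeR). DPP4, the protease that trims the ligands at their amino end, had 3.39 ± 0.551 CPM in NC and means of 3.0 to 3.17 CPM in stimulated cells and was not called. PF4V1, a platelet chemokine that binds a CXCR3 variant, had 15 reads in all, and ACKR1 and PF4 had none.

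Interferon genes themselves gave few reads. Of the 21 interferon ligands only IFNB1, interferon beta, passed the filter. Its reads were 3, 2 and 0 in NC, 3, 9 and 22 in EUC, 14, 8 and 7 in EPL, 6, 15 and 10 in SUC, and 3, 7 and 1 in SPL. The groups overlap with NC in EUC and SPL and do not in EPL and SUC. The log2 fold change was 2.77 in EUC (adjusted p = 0.0146), 2.52 in EPL (adjusted p = 0.0287), 2.64 in SUC (adjusted p = 0.0269) and 1.18 in SPL (adjusted p = 0.413) by edgeR, so it was not called. With DESeq2, the tool of the study, IFNB1 was called in EUC, 1 call of the list where edgeR gave 0. IFNB1 had at most 3 reads in each NC library and passed the filter only through the stimulated groups. Its difference from NC is thus no support by itself. IFNL1, an interferon lambda, had 43 reads in stimulated libraries and 0 in NC. IFNL3 and IFNW1 had 1 read each, and IFNG and the other 16 had none.

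Among the genes of the interferon receptors and the JAK-STAT pathway, STAT2, IRF9 and IFNGR2 were called higher in each stimulated group. STAT2 rose by 2.63, 2.72, 2.09 and 2.37 on the log2 scale in EUC, EPL, SUC and SPL, and IRF9, its DNA-binding partner, by 1.99, 2.13, 1.72 and 1.91. IFNGR2, a chain of the interferon gamma receptor, rose by 1.79, 1.65, 1.73 and 1.73. IFNGR1, the other chain, rose by 1.07 in EUC and 1.08 in EPL and had values of 0.70 in SUC and 0.71 in SPL, which passed the p threshold and not that of the fold. IFNAR1 (0.46 to 0.58), IFNAR2 (-0.20 to 0.25), IL10RB (0.37 to 0.73), JAK1 (0.26 to 0.38), JAK2 (0.43 to 0.61) and TYK2 (0.26 to 0.56) had log2 fold changes under the threshold, and IFNLR1 had no read.

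Of the other factors that act at chemokine promoters, NFKB1, which encodes the p105 and p50 subunit of NF-kappa B, was called higher in each stimulated group at log2 fold changes of 2.42 to 2.81. IRF7 rose by 2.49 to 3.03 and IRF1 by 1.23 to 1.54 on the log2 scale. IRF8, a factor of the monocyte lineage, fell by 1.74 and 1.96 in EUC and EPL and by 1.40 and 1.60 in SUC and SPL on the log2 scale. IRF3, IRF5 and RELA were not called, with IRF5 at 0.32 to 0.62.

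The neighbours on chromosome 4 stayed below the call. SDAD1 had log2 fold changes of 0.01 to 0.18, NUP54 of 0.09 to 0.13, SCARB2 of 0.14 to 0.26 and NAAA of -0.42 to -0.25 against NC. ART3, whose span encloses CXCL10 and CXCL11, had 0, 2 and 2 reads in NC and 0 to 6 reads in the stimulated libraries, and PPEF2 had 16 reads in all, so neither was tested.

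Of 19 ISRE targets of type I interferon, such as the OAS, MX and IFIT antiviral genes, 19 were called higher in each stimulated group. The share over all tested genes was 6.82% to 9.43%. Their median log2 fold changes were 3.91 (EUC), 3.96 (EPL), 3.44 (SUC) and 3.71 (SPL). OAS3, an activator of RNase L, went from 50.7 ± 5.70 CPM in NC to 806 ± 233 in EUC, and OAS2 from 41.7 ± 2.69 to 603 ± 61.9 CPM (SD, n = 3 each). MX2, a dynamin-like antiviral GTPase, rose by 3.28 to 3.96 over the 4 groups and ISG15, a ubiquitin-like modifier, by 3.02 to 3.66 on the log2 scale. In the promoter table, 13 of 21 promoter entries of these genes held the ISRE letters in the same window that CXCL9 and CXCL10 hold them in.

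Of 11 targets typical of interferon gamma, 8 were called higher in EUC, EPL and SPL and 6 in SUC. The median log2 fold changes were 2.22, 2.33, 2.0 and 1.83 in the same order. Over all tested genes the share called higher was 6.82% to 9.43%. GBP1, GBP2, GBP4, GBP5, which are guanylate-binding proteins, IDO1, which breaks down tryptophan, and TAP1, the peptide transporter, were called in every group. GBP1, GBP5 and IDO1 had under 10 reads in each NC library (2, 20 and 0 in all), so they passed the filter only through the stimulated groups and had to differ, and the counts of 8 and 6 include them. TAP1 rose by 2.22 to 2.58 on the log2 scale. WARS1 (0.59 to 0.86), PSMB9 (0.26 to 0.56), an immunoproteasome subunit, and FCGR1A (-0.46 to 0.03) were not called. CIITA, the regulator of MHC class II, and SOCS1, an inhibitor of JAK kinases, rose in EUC, EPL and SPL and had values of 0.45 and 0.79 in SUC.

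In the routes that sense bacterial products, 7, 6, 6 and 5 of 12 tested genes were called higher in EUC, EPL, SUC and SPL. None was called lower. Over all tested genes 9.43%, 9.38%, 6.82% and 7.76% were called higher in the same order of groups. MYD88, the adaptor of most Toll-like receptors, rose by 1.71 to 1.92 and TICAM1 (TRIF), the adaptor on the way to interferon beta, was called in every group. IKBKE, a kinase that activates IRF3, rose by 1.97 to 2.20 and TRAF3, which links TRIF to it, by 1.06 to 1.14. TLR2, which senses bacterial lipoproteins, had values of 0.50 to 0.86. TLR4, the lipopolysaccharide receptor, rose by 1.31 in EUC and 1.42 in EPL and had values of 0.82 in SUC and 1.00 in SPL, the latter just under the threshold before rounding. Its partner LY96 had 17 reads in all and was not tested.

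The other CXC chemokines, most of which bind CXCR2 and draw neutrophils, set the ligands in context. Of 9 tested, 8 were called higher in each stimulated group and CXCL16 was not, beside 6.82% to 9.43% of all tested genes. CXCL3, CXCL6, CXCL12, CXCL13 and CXCL14 had under 10 reads in each NC library and, like the CXCR3 ligands, had to differ once they passed the filter. CXCL8 (IL-8) went from 7.38 ± 0.467 CPM in NC to 1112 ± 162 in SUC and 1959 ± 355 in EUC (SD, n = 3 each), and CXCL1, CXCL2 and CXCL12 were the next in level. Between the species, 6 of the 9 were called higher with *E. coli* BEVs, with a median log2 fold change of 1.08. Of all tested genes, 0.686% were called there in either direction. CXCL1 stood at 1.01, CXCL12 at 1.15 and CXCL13, a B cell chemokine, at 2.09. CXCL2, CXCL8 and CXCL16 were not called between the species. Of the 19 ISRE targets 0 were called between the species by edgeR, at a median of 0.48 (1, ISG20, was called between EUC and SUC), and of the 11 interferon gamma type targets 0, at 0.39. The 0.40 of CXCL10 and CXCL11 lay beside those 2 medians. The interferon gamma type targets spread from -0.35 (FCGR1A) to 0.96 (CIITA). A value near the median of this list or of the ISRE list does not place the ligands with either.

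CXCL10 was set against these genes by its ratio to each of the 4 most abundant genes of both lists within a library, a test added after the fold changes had been seen. The log2 ratio of CXCL10 to CXCL1 was 0.35 ± 0.287 in the *E. coli* and 0.97 ± 0.237 in the *S. aureus* libraries (SD, n = 6 each; exact permutation p = 0.00433, adjusted p = 0.0173 over 8 ratios). The difference in the log2 ratio was -0.62 for CXCL1, -0.54 for CXCL2 (adjusted p = 0.0173), -0.78 for CXCL12 (adjusted p = 0.0173) and -0.23 for CXCL8 (adjusted p = 0.0346) by the exact permutation test. The sign was the same in the UC and in the PL libraries. None of these adjusted p-values reached 0.01, and the ratios restate a gap already seen in the fold changes, so they are no independent evidence of it. Against OAS3, OAS2, MX2 and ISG15 the differences were 0.06, 0.07, -0.11 and -0.08, each with an adjusted p of 0.797 by the exact permutation test.

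**Figure D5:**
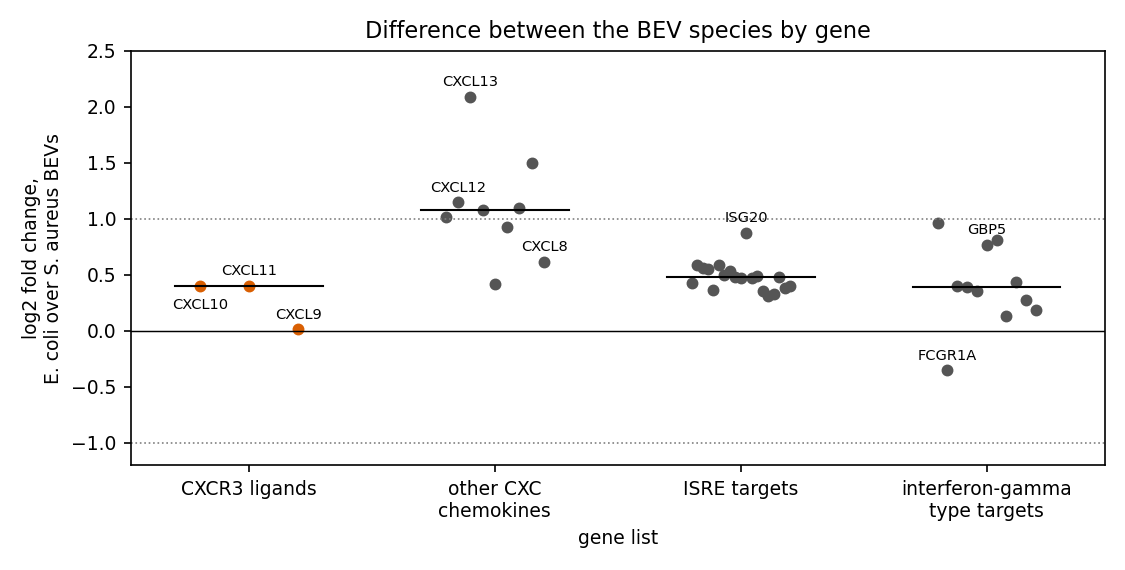
Log2 fold change of *E. coli* over *S. aureus* BEVs (mean of EUC and EPL against mean of SUC and SPL) for each tested gene of 4 lists. Points are genes, bars are list medians and dotted lines mark a 2-fold change. The other CXC chemokines have a median of 1.08, the ISRE targets 0.48 and the interferon gamma type targets 0.39, and CXCL10 and CXCL11 stand at 0.40.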

How the data were processed

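RNA of THP-1 cells was sequenced from both ends in 15 libraries, 3 for each of 5 groups given by the labels. The authors aligned the reads to hg38 with HISAT2 and deposited raw read counts per Ensembl gene, without normalization. The submitters' processing notes name FastQC 0.11.5, HISAT2 2.1.0, StringTie 1.3.3b, featureCounts and DESeq 1.28.0. In the sources used here neither the annotation release nor the strand setting of counting is given, so reads of genes that overlap on opposite strands cannot be told apart. The table holds 60286 genes, 23219 of them without a read. No value column was left unused.

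The deposited counts were analysed with edgeR 4.0.16 in R 4.3.3, with filterByExpr, TMM factors (0.915 to 1.09) and the quasi-likelihood test in 1 fit of 15 libraries, without a replicate block. P-values were adjusted by Benjamini-Hochberg over 17198 genes in each of 10 contrasts. Calls needed adjusted p ≤ 0.01 and |log2 fold change| ≥ 1, thresholds taken from the study, which used DESeq2. Log2 CPM used a prior count of 2 and ligand ratios a pseudocount of 0.5. Ratios against fewer than 4 NC reads were formed from normalised counts. Lengths and overlaps come from GENCODE release 44 and promoters from RefSeq (GRCh38.p14). DESeq2 1.42.0, no filter, a replicate block, only the compared groups and leaving out each library were alternatives. The scripts were tested on simulated data.

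The ligands and gene lists were chosen with earlier results of these data known. Named are the ligands, the 5 genes most like each, all called or detected genes of the receptor, interferon, JAK-STAT and neighbour lists, and in other lists the 4 with the highest mean CPM. A gene of the JAK-STAT list is not reported here, nor are the counts and medians of the lists that hold it. IRF1, IRF3, IRF5, IRF9, RELA, the GBP genes, IDO1, CIITA, SOCS1, TICAM1, TLR4, LY96, CXCL3, CXCL6, CXCL13, CXCL14, CXCL16 and the marker genes named were added after their values were seen.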

Additional observations from a re-analysis of the deposited data

How the results depend on the processing

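Of 30 results of the ligands (3 genes in 10 comparisons), 25 kept their direction and their side of the call in each alternative that gave a value, and the call itself changed in none. The other 5 had small values that changed sign in some alternatives when 1 library was left out. On the log2 scale CXCL9 between the species ranged from -0.14 to 0.27, CXCL10 between SPL and SUC from -0.037 to 0.095 and CXCL11 between SPL and SUC from -0.18 to 0.0017. CXCL11 between EPL and EUC ranged from -0.28 to 0.0076, its difference of methods between species from -0.19 to 0.092, and the species difference in the log2 ratio of CXCL11 to CXCL10 from -0.047 to 0.042. Those of CXCL10 to OAS3, OAS2 and ISG15 ranged from -0.15 to 0.21, -0.069 to 0.16 and -0.15 to 0.024. In the UC libraries alone (3 against 3, where p cannot go below 0.1) the species differences of the ligand ratios were 0.16 for CXCL9 to CXCL10, -0.11 for CXCL11 to CXCL10 and 0.27 for CXCL9 to CXCL11. The cause was not tested.

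Without the third EUC library the log2 species difference of CXCL10 went from 0.40 to 0.28. With only the compared groups in the fit, the adjusted p of CXCL10 between EUC and SUC was 0.217. Averaged over all tested genes, the replicate numbers showed no pairing. The mean correlation of deviations was 0.0095 over 30 pairs with the same number and -0.0036 over 60 other pairs. Of these, 7 of the 30 and 12 of the 60 were over 0.1. The third library was nevertheless the highest of its group for CXCL10 in EUC, EPL, SUC and SPL (148, 107, 88.5 and 83.5 CPM). For CXCL11 it was the highest as well (20.1, 17.1, 13.3 and 13.2 CPM in the same order). The mean over all genes thus does not settle pairing for CXCL10 and CXCL11. With a replicate block the log2 species difference of CXCL10 was 0.39 (SE 0.0796, adjusted p = 0.00758 by edgeR), still not called. Its SE without the block was 0.0990. No ligand changed its call with the block.

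Counts of called genes moved more. DESeq2 called 2 genes between SPL and SUC, 43 between EPL and SPL and 3 in the difference of methods, where edgeR called 1, 21 and 0. Without the filter these were 2, 43 and 4. Without a threshold on the fold, edgeR called 5251, 5026, 3697 and 4114 genes in EUC, EPL, SUC and SPL against NC, 429 between EUC and SUC, 66 between EPL and SPL and 665 between the species. With 1 library left out the counts ranged from 1 to 2 between SPL and SUC, from 5 to 25 between EPL and SPL, from 75 to 149 between EUC and SUC and from 0 to 1 in the difference of methods. Without the second SPL library 5 genes were called between EPL and SPL, and without the second SUC library 75 between EUC and SUC. Depth limits CXCL9 in particular: leaving out an NC library raises its limit of detection there, and the lower bounds of its increase then fall to between 9.20 and 15.4.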
